A study of Homo sapiens with 12 samples.

Results

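HUDEP-2 cells with MBD2 disrupted were compared with control HUDEP-2 cells in expansion medium, before any differentiation was induced. The comparison rests on 6 of the 12 libraries of the study, 3 per group, and on 17175 of the 60483 genes in the count table, which are those with enough reads to test. HUDEP-2 is an immortalized erythroid line from human cord blood. Control cells carried a scrambled guide (sgSCR, genotype WT), and knockout cells are labelled MBD2KO with genotype MBD2-/-. Both groups are labelled early basophilic erythroblast and both grew in SFEM with SCF, EPO, DEX (dexamethasone), DOX (doxycycline) and L-Glu, so the cytokines, the steroid and doxycycline were shared. The labels do not say whether the knockout cells came from 1 clone or whether replicates were separate cultures, so the p-values reflect the spread among these libraries alone, which may be technical. The other 6 libraries, taken from the same kinds of cells after differentiation, entered the fit, and their knockout effect is set beside this comparison below.

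MBD2 is a reader of DNA methylation. It binds DNA with methylated CpG dinucleotides and carries the NuRD complex, which combines histone deacetylase and nucleosome remodeling activity, to that DNA. In erythroid cells it is known for its part in keeping fetal globin genes silent. Early erythroblasts divide under stem cell factor, erythropoietin and glucocorticoid, and later switch to building hemoglobin and the red cell membrane.

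The targeted gene and the markers of the cell type were examined first. MBD2 mRNA measured 78.7, 77.7 and 75.3 CPM (counts scaled to library size) in the control libraries and 22.7, 19.8 and 24.5 CPM in the knockout libraries. Every knockout library lay below every control library, with a log2 fold change of -1.79 ± 0.08. MBD2 reads were thus fewer and not absent, and gene-level counts cannot show which part of the transcript they came from. Of 18 defining erythroblast markers all were detected and tested, 10 were higher in knockout, 0 were lower, and no marker was at 0. The count of 10 became 6 without control replicate 1 or control replicate 2. The summed level of these markers ran from 11198 to 16304 CPM in control and from 11856 to 18012 CPM in knockout libraries. Globin counts left by the depletion kit took 0.125% to 0.615% of the counts per library and make up much of that range. Total counts ran from 9833846 to 14047498. The first principal component of these 6 libraries held 57.4% of the variance.

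At a Benjamini-Hochberg adjusted p under 0.05 in edgeR's quasi-likelihood test, 1558 genes (9.07% of those tested) were higher in knockout and 1400 (8.15%) were lower. Most changes were modest, with a median of 1.46-fold among genes called higher and 1.44-fold among those called lower. At least 4-fold changes were called for 200 genes that rose and 70 that fell, and at least 16-fold changes for 46 and 12. Genes nearly silent in control cells account for much of that tail. Of 446 tested genes under 0.5 CPM in control libraries, 157 were called higher, 114 of them by 4-fold or more, and 1 was called lower. A gene this low in control could pass the filter on low counts only through another group, so that share is a description and not a test. Among genes over 200 CPM in control, 84 of 873 rose and 102 fell. Without control replicate 1 the count of higher genes was 1024. The plot of change against level shows this shape, and the plot of levels by library gives the individual values behind 20 of the genes described below. Coding genes picked below by size of change, level or p-value had to show no overlap between groups. For them that trait is therefore no finding, and 30.7% of all tested genes show it.

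**Figure D1:**
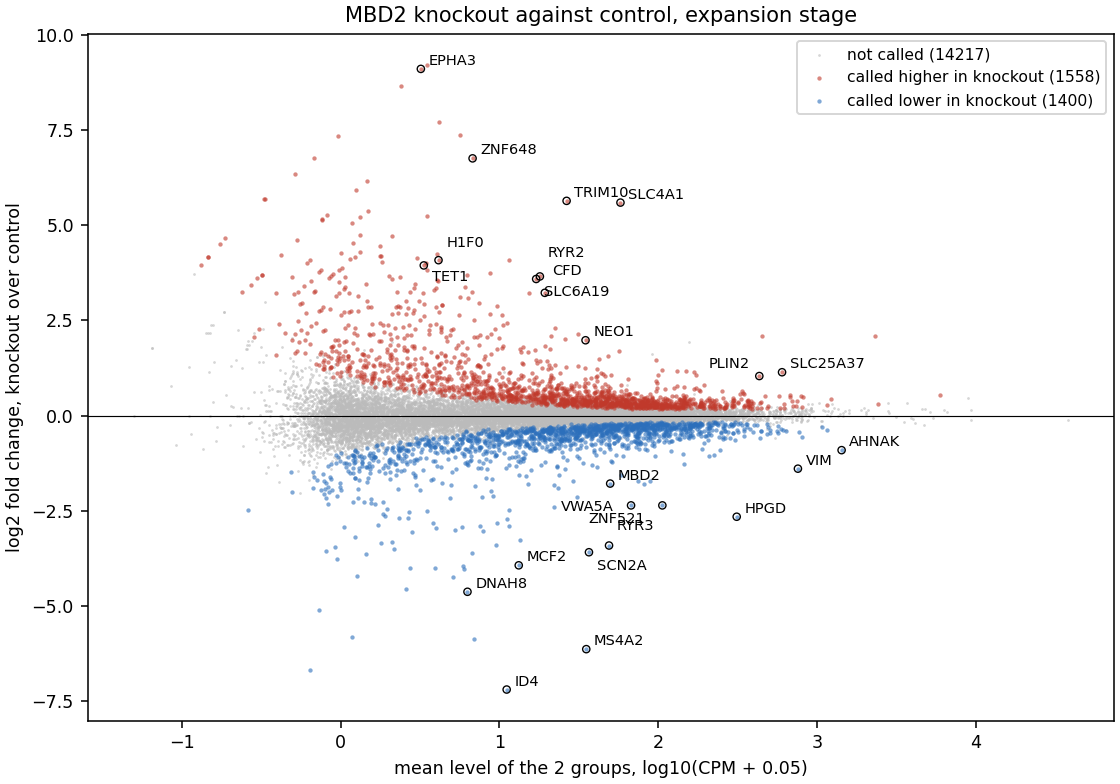
Log2 fold change of knockout over control (vertical) against the mean level of the 2 groups as log10(CPM + 0.05) (horizontal), 1 point per tested gene, with 1558 called higher in red, 1400 called lower in blue and 14217 not called in grey. The highest points, above a log2 change of 4, lie mostly at low mean levels, while AHNAK, VIM and HPGD are abundant genes that fell.

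**Figure D2:**
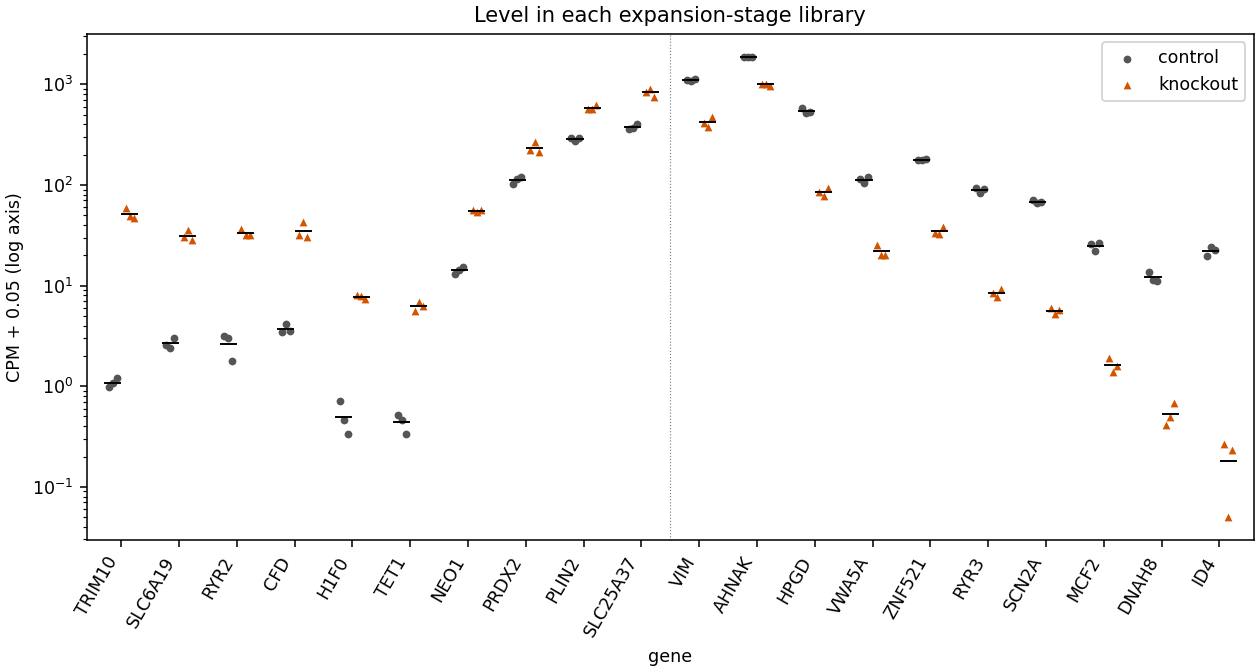
CPM + 0.05 on a log axis for 20 genes in each of the 3 control (circles) and 3 knockout (triangles) libraries, with bars at the group means. Genes left of the dotted line were called higher and genes right of it lower in knockout. In all 20 the groups do not overlap, which was a condition for those picked by size of change, level or p-value. No overlap is seen for 30.7% of all tested genes.

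Since MBD2 reads methylated CpG, the sequence upstream of genes at the extremes is shown for 4 genes, with each CG in capitals. TRIM10 and ZNF648 were among the largest rises and MS4A2 and ID4 were the largest falls among genes of at least 10 CPM. Each run is the 250 bases before the RefSeq start in build GRCh38.p14, on the strand of the gene. They lie at chr6:30161212-30161461 for TRIM10, minus strand, chr1:182061713-182061962 for ZNF648, minus strand, chr11:60088414-60088663 for MS4A2, plus strand, and chr6:19837120-19837369 for ID4, plus strand.
TRIM10: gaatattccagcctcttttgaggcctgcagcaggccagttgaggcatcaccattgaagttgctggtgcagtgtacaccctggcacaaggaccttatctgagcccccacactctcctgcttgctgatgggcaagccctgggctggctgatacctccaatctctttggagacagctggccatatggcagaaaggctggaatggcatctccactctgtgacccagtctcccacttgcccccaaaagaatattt
ZNF648: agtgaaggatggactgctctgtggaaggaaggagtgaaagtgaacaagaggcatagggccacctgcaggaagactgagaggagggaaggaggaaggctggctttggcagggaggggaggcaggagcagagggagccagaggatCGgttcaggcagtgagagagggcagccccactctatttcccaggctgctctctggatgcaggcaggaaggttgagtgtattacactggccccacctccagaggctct
MS4A2: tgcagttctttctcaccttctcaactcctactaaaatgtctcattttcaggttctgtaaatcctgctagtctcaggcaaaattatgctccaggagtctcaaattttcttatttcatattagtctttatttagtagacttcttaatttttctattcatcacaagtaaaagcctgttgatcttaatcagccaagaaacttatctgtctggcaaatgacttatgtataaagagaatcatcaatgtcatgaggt
ID4: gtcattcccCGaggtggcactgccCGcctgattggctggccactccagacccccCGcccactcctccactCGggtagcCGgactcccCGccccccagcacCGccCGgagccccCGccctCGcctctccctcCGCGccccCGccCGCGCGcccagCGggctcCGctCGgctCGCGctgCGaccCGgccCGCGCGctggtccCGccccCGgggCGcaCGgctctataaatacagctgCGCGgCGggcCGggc

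The TRIM10 and MS4A2 stretches hold 0 CG, the ZNF648 stretch holds 1, and the ID4 stretch holds 34. Few CG thus stand before both rising genes and MS4A2, and many before ID4. Over all protein-coding genes, 9681 of the 11652 tested matched a RefSeq window of 300 bases (250 before to 50 after the start). A window was called CpG-rich at a GC content of at least 50% and an observed-to-expected CpG ratio of at least 0.6, and a gene counted if any of its windows was. By that measure 86.5% of all matched genes, 87.2% of genes not called, 84.0% of those higher and 83.7% of those lower had a CpG-rich window. Among genes changed at least 4-fold the shares were lower in both directions, at 62.9% of 124 that rose (95% Wilson interval 54.1 to 70.9, counting error only) and 64.6% of 48 that fell. Genes near silence in control are CpG-poor more often whatever their call. Under 2 CPM in control the share was 68.1% of 216 genes called higher and 63.8% of 765 not called. Of 70 genes of any type that fell at least 4-fold, 13 stood at 0.5 to 2 CPM in control, 30 at 2 to 10 and 19 at 10 to 50. From 2 to 10 CPM the CpG-rich share was 71.6% of coding genes called lower and 82.7% of those not called. From 10 to 50 CPM it was 84.7% and 91.7%. The reason for the low share among the larger falls was not tested. The letters AGATAA or, on the other strand, TTATCT, a form of the GATA motif, stand in the window of 7.63% of all matched genes, 10.8% of genes called higher and 10.6% of genes called lower. They stand in 21.8% of those that rose and 27.1% of those that fell at least 4-fold. Under 2 CPM in control the shares were 15.7% of genes called higher, 6.90% of those lower and 9.28% of those not called. From 2 to 10 CPM they were 9.71%, 13.5% and 7.25%. These shares count a gene if any of its windows holds the letters. Counted per window, the share was 10.3% of all 35116 windows of the table. The TRIM10 and MS4A2 windows hold these letters and the ZNF648 and ID4 windows do not. These are matches of letters, not binding sites.

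The genes that rose most, apart from red cell genes, came from many unrelated functions and several are best known from other tissues. RYR2, the calcium release channel of heart muscle, measured 3.1, 2.98 and 1.71 CPM in control cells versus 36.7, 31.4 and 31.7 CPM in knockout cells, a log2 fold change of 3.66 ± 0.15, adjusted p = 5.29e-11. SLC6A19, a transporter of neutral amino acids, went from 2.53, 2.37 and 2.95 to 30.5, 35.4 and 28.1 CPM (3.59 ± 0.16, adjusted p = 1.01e-10). Complement factor D, CFD, a serine protease of the alternative pathway, went from 3.38, 4.13 and 3.52 to 31.8, 42.6 and 30.1 CPM (3.23 ± 0.18, adjusted p = 1.99e-09). RYR2, SLC6A19 and CFD were picked by size of change, which required groups that do not overlap. NEO1, a receptor for netrins and repulsive guidance molecules, had one of the smallest p-values with 12.9, 14.1 and 15.3 CPM against 56.4, 53.8 and 56.5 CPM (1.98 ± 0.09, adjusted p = 9.23e-11). The adhesion molecule ALCAM rose by 3.09 ± 0.23, the NOD-like receptor NLRC5, an activator of MHC class I genes, by 3.11 ± 0.22, the small protein gene SH3BGRL2 by 3.70 ± 0.24 and ITPRIPL2 by 3.23 ± 0.14. ITPRIPL2 shares 21% of its exon bases with another gene, so part of its count depends on how shared reads were treated. The ephrin receptor EPHA3 held 0 counts in every control library and 229 over the knockout libraries, where it measured 7.07, 5.75 and 6.06 CPM. At a floor of 3 counts over the control group that is at least 76.1-fold higher.

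Falls of comparable size were called for fewer genes, and some of these had been well expressed in control cells. RYR3, a paralog of RYR2, measured 93.4, 83.8 and 91.5 CPM in control cells versus 8.3, 7.63 and 9.23 CPM in knockout cells (-3.41 ± 0.10, adjusted p = 1.14e-12). These ryanodine receptor genes moved in opposite directions. SCN2A, a voltage-gated sodium channel of neurons, went from 70.2, 65.5 and 67.1 to 5.92, 5.12 and 5.7 CPM (-3.59 ± 0.12, adjusted p = 2.85e-12). HPGD, the enzyme that inactivates prostaglandins, went from 576, 513 and 529 to 85.3, 77.5 and 93.6 CPM (-2.66 ± 0.09, adjusted p = 2.85e-12). HPGD stood among both the largest falls in level and the smallest p-values. VWA5A went from 114, 105 and 119.6 to 25.3, 20.2 and 20.1 CPM (-2.36 ± 0.09, adjusted p = 1.18e-11). The guanine nucleotide exchange factor MCF2 fell with a log2 change of -3.93 ± 0.17, the axonemal dynein heavy chain DNAH8 with -4.63 ± 0.28, PLEKHA5 with -3.28 ± 0.17 and SYTL2, an effector of Rab27 in vesicle transport, with -3.40 ± 0.20. FAM198B fell with -3.62 ± 0.26, or -4.27 without knockout replicate 1, which held 1.59 CPM of the gene against 0.359 and 0.905 in the other knockout libraries.

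Ranked by difference in level per kilobase, the genes that rose included enzymes and carriers of red cells and a lipid droplet protein. PLIN2, which coats lipid droplets, went from 289.9, 273 and 289.7 to 565, 567 and 618 CPM (1.04 ± 0.07, adjusted p = 9.71e-09). The mitochondrial iron importer SLC25A37 went from 358, 368 and 405 to 837, 903 and 749 CPM. PRDX2, the abundant peroxiredoxin of red cells, went from 103, 114 and 119.6 to 221, 266 and 212 CPM (1.06 ± 0.09, adjusted p = 3.41e-07). All 3 knockout libraries lay above all 3 control libraries for each, as the pick by level required. The carboxypeptidase inhibitor LXN rose by 1.16 ± 0.10, biliverdin reductase BLVRB by 0.60 ± 0.08, carbonic anhydrase CA2 by 0.48 ± 0.07 and the alpha-globin chaperone AHSP by 0.33 ± 0.07. Several calls on this ranking ended when a single library was left out. The heat shock gene HSPA8 was not called without any one control library or knockout replicate 3 (adjusted p up to 0.153), and the ferritin light chain FTL without any one control library or knockout replicate 2 (up to 0.155). SLC25A6 was not called without control replicate 1, control replicate 2 or knockout replicate 2 (up to 0.159), the erythroid factor KLF1 without control replicate 1 or 2 or knockout replicate 1 or 2 (up to 0.0905), and RPL8 without control replicate 1 or knockout replicate 2 (up to 0.0622).

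The abundant genes that fell included several of the cytoskeleton and membrane cortex. VIM, the intermediate filament vimentin, went from 1109, 1066 and 1127 to 409, 377 and 469 CPM (-1.40 ± 0.09, adjusted p = 1.74e-08). AHNAK, a very large scaffold under the plasma membrane, went from 1872, 1847 and 1886 to 1014, 1010.4 and 960.3 CPM (-0.91 ± 0.06, adjusted p = 1.44e-08). Both were lower in every knockout library than in any control library, a trait that picks by level had to have. The actin-binding thymosin TMSB10 fell with -0.60 ± 0.07, the calcium-binding S100A4 with -0.36 ± 0.07 and S100A10, the annexin A2 partner, with -0.86 ± 0.09. Outside this group, the HMG-CoA synthase of the cholesterol pathway, HMGCS1, fell with -0.55 ± 0.09, the fatty acid enzyme DECR1 with -0.59 ± 0.07, the lysosomal membrane protein LAPTM4B with -0.47 ± 0.06 and the asparaginyl-tRNA synthetase NARS, on chromosome 18, with -0.41 ± 0.07. VIM shares 25.4% of its exon bases with another gene, and the antisense gene VIM-AS1 fell too (-1.06 ± 0.17), which counting without strand cannot separate from VIM. In the list of vimentin, lamins, actin regulators and adhesion genes, 4 of 32 tested members rose (12.5%) and 7 fell (21.9%). Over all genes the shares were 9.07% and 8.15%. The median change was -0.07, against -0.00 over all genes.

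Among the chromatin genes, few partners of MBD2 were called and a few genes of other classes rose from near 0. Of 16 other NuRD subunits 0 were lower and 1 (6.25%, against 9.07% of all genes), CDK2AP1, was called higher at 0.34 ± 0.11, adjusted p = 0.0364. That call ended in 5 of the 6 fits that left out a library, and its adjusted p reached 0.142 when control replicate 1 was dropped. The remodeling ATPase CHD4 measured -0.13 ± 0.06 and the deacetylase HDAC1 0.13 ± 0.06, neither called. Of 12 methyl-CpG binding proteins, 2 rose and 2 fell (16.7% each, against 9.07% and 8.15% of all genes). ZBTB38, a zinc finger reader of methylated DNA, went from 10.4, 12.7 and 11 to 19.3, 20 and 18.7 CPM (0.76 ± 0.12, adjusted p = 2.23e-04), and UHRF1, which recruits maintenance methylation, rose by 0.42 ± 0.09. Besides MBD2 the falling member was MBD1 (-0.34 ± 0.08), which also lies on chromosome 18. Of 12 genes that write or erase DNA methylation, 4 rose (33.3%) and 2 fell (16.7%). The latter count was 1 without any one of control replicates 1 and 2 and knockout replicates 2 and 3. TET1, which oxidizes methylcytosine, measured 0.469, 0.406 and 0.286 CPM in control cells versus 5.49, 6.83 and 6.24 CPM in knockout cells (3.94 ± 0.30, adjusted p = 5.30e-08). Its relative TET3 rose by 0.35 ± 0.08, and GADD45A and GADD45B, named for DNA damage, went in opposite directions (0.71 ± 0.12 and -0.65 ± 0.14).

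Linker histone H1F0, the variant of resting and differentiated cells, had the largest change among histones. It measured 0.657, 0.406 and 0.286 CPM in control cells versus 8.08, 7.81 and 7.24 CPM in knockout cells (4.08 ± 0.25, adjusted p = 5.07e-09). The replication-dependent linker histone HIST1H1D fell (-0.42 ± 0.08), and HIST1H1C at -0.12 ± 0.08 was not called. Leaving out knockout replicate 1 added HIST1H1C to the calls, at -0.23 with adjusted p = 0.0351. Among 58 core histone genes 9 rose (15.5%) and 2 fell (3.45%), against 12.1% and 10.4% of protein-coding genes. Of 23 polycomb subunits 5 rose and 0 fell, with PCGF5 at 0.60 ± 0.08 and CBX7, on a low level, at 0.95 ± 0.21. The count of 5 became 2 without control replicate 2 and 3 without control replicate 1 or 3 or knockout replicate 2 or 3. Of 19 corepressor genes 3 rose (15.8%, against 9.07% of all genes) and 2 fell (10.5%, against 8.15%). The latter count was 1 without control replicate 1 or knockout replicate 1. RUNX1T1, the ETO corepressor, went from 0.657, 0.406 and 0.857 to 8.52, 6.2 and 7.15 CPM (3.55 ± 0.26, adjusted p = 4.14e-08) and HDAC5 rose by 0.83 ± 0.16.

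Many erythroid transcription factors rose by a little. Of 29 tested core factors and cofactors 13 rose (44.8%, against 9.07% of all genes) and 2 fell, with a median change of 0.27. Changes in this list ran from -0.66 to 0.61. NFE2, which binds the globin locus control region, went from 67.3, 69.4 and 77.7 to 108, 106 and 105 CPM (0.58 ± 0.07, adjusted p = 1.32e-05). KLF3, a repressor of the KLF family, went from 124, 126 and 119 to 173, 163 and 170.4 CPM (0.45 ± 0.06, adjusted p = 3.68e-05), and the cell cycle factor E2F2 rose by 0.61 ± 0.10. CBFB, the partner of RUNX factors, fell with -0.66 ± 0.09. The 13 became 7 without control replicate 1, and the 2 became 1 in each fit that left out any library but knockout replicate 3. Of 24 fetal-stage regulators 7 rose (29.2%) and 3 fell (12.5%, against 8.15% of all genes). Among those that rose was ARID3A, a DNA-binding factor, with 7.69, 5.76 and 7.14 CPM against 12.8, 15.9 and 12.8 CPM (1.02 ± 0.16, adjusted p = 1.60e-04). In the ID family and its helix-loop-helix partners 4 of 9 tested members fell (44.4%) and 1 rose (11.1%, against 9.07% of all genes). The 4 became 3 in each fit that left out a library. ID4 went from 19.5, 24 and 22.4 to 0.217, 0 and 0.181 CPM, ID2, a more abundant inhibitor of the same kind, fell with -0.35 ± 0.08 and the E-protein TCF4, on chromosome 18, with -0.73 ± 0.08. The Hairy-related factor HES6 rose by 0.42 ± 0.09, and a second member was called higher without knockout replicate 1.

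Receptors and their signaling genes moved both ways. Of 25 tested cytokine and growth factor receptors 6 rose and 5 fell, with a median of -0.08. IL6ST, the shared gp130 chain of interleukin-6 receptors, went from 47.6, 48.4 and 44.3 to 63.9, 63.5 and 67.8 CPM (0.47 ± 0.07, adjusted p = 6.46e-05). The activin receptors split, with ACVR2B at 0.54 ± 0.10 and ACVR1B at -0.54 ± 0.09, both called. Among 29 JAK-STAT and MAPK feedback genes 3 rose (10.3%, against 9.07% of all genes) and 7 fell (24.1%, against 8.15%). The falls numbered 5 to 6 in the fits that left out a library. CISH, a feedback inhibitor induced by erythropoietin signaling, went from 11.9, 13.1 and 13.4 to 22.2, 29 and 20.7 CPM (0.90 ± 0.13, adjusted p = 9.99e-05). JAK2, the kinase of the erythropoietin receptor, rose by 0.44 ± 0.08. SOCS2 fell with -0.39 ± 0.07 and SOCS6, on chromosome 18, with -1.04 ± 0.08. Of 16 glucocorticoid target genes 6 rose (37.5%) and 2 fell (12.5%), the latter count being 1 without control replicate 1. The glucocorticoid receptor NR3C1 itself measured 101, 96.7 and 96.9 CPM in control cells versus 84.9, 75.5 and 76.3 CPM in knockout cells, a small fall without overlap (-0.32 ± 0.06, adjusted p = 0.00199). CXCR4, the chemokine receptor, rose by 1.66 ± 0.24 and the cell cycle inhibitor CDKN1C by 1.38 ± 0.18.

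Genes of the red cell membrane carried the highest share of upward calls among the 36 gene lists described here. In the band 3 complex and spectrin skeleton 10 of 17 members rose (58.8%) and 2 fell, the latter being 1 without control replicate 1, control replicate 2 or knockout replicate 3. The band 4.2 gene EPB42 rose by 0.52 ± 0.08 and MPP1, a membrane scaffold, by 0.37 ± 0.06. Of 27 glycophorins, Rh and other blood group carriers 15 rose and 4 fell. GYPB, which encodes glycophorin B, went from 24.5, 25.7 and 24.8 to 67.3, 58.6 and 47.6 CPM without overlap between groups, and its reads are uncertain because the family holds close paralogs. The median change of that list was 0.32.

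Transport, remodeling, heme and iron genes had fewer calls, nearly all of them upward. Of 28 red cell transporters and channels 9 rose and 1 fell. SLC2A14, a glucose transporter close in sequence to SLC2A3, went from 2.06, 0.88 and 1.71 to 8.81, 8.62 and 10.9 CPM (2.65 ± 0.23, adjusted p = 3.41e-07), the chloride transporter gene CLCN3 rose by 0.42 ± 0.07, and the calcium-activated potassium channel KCNN4, the Gardos channel, fell with -0.84 ± 0.13. Of 24 ubiquitin and organelle remodelers 8 rose and 0 fell, a count that was 5 without control replicate 3. GABARAPL1, which takes part in autophagy, went from 2.44, 2.1 and 2.19 to 7.87, 6.92 and 5.34 CPM (1.59 ± 0.19, adjusted p = 1.30e-05), and the ubiquitin ligase gene RNF123 and deubiquitinase gene YOD1 rose by 0.53 ± 0.08 and 0.37 ± 0.08. Of 22 heme genes 11 rose and 1 fell, with UROD, a middle enzyme of the pathway, at 0.41 ± 0.07. Of 20 iron genes 7 rose and 1 fell, the 7 being 4 without control replicate 2. GLRX5, needed for iron-sulfur clusters, went from 95.3, 100.2 and 91.1 to 169.8, 154 and 147 CPM (0.71 ± 0.07, adjusted p = 1.61e-06) and NCOA4, the receptor that delivers ferritin for breakdown, rose by 0.45 ± 0.06.

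**Figure D3:**
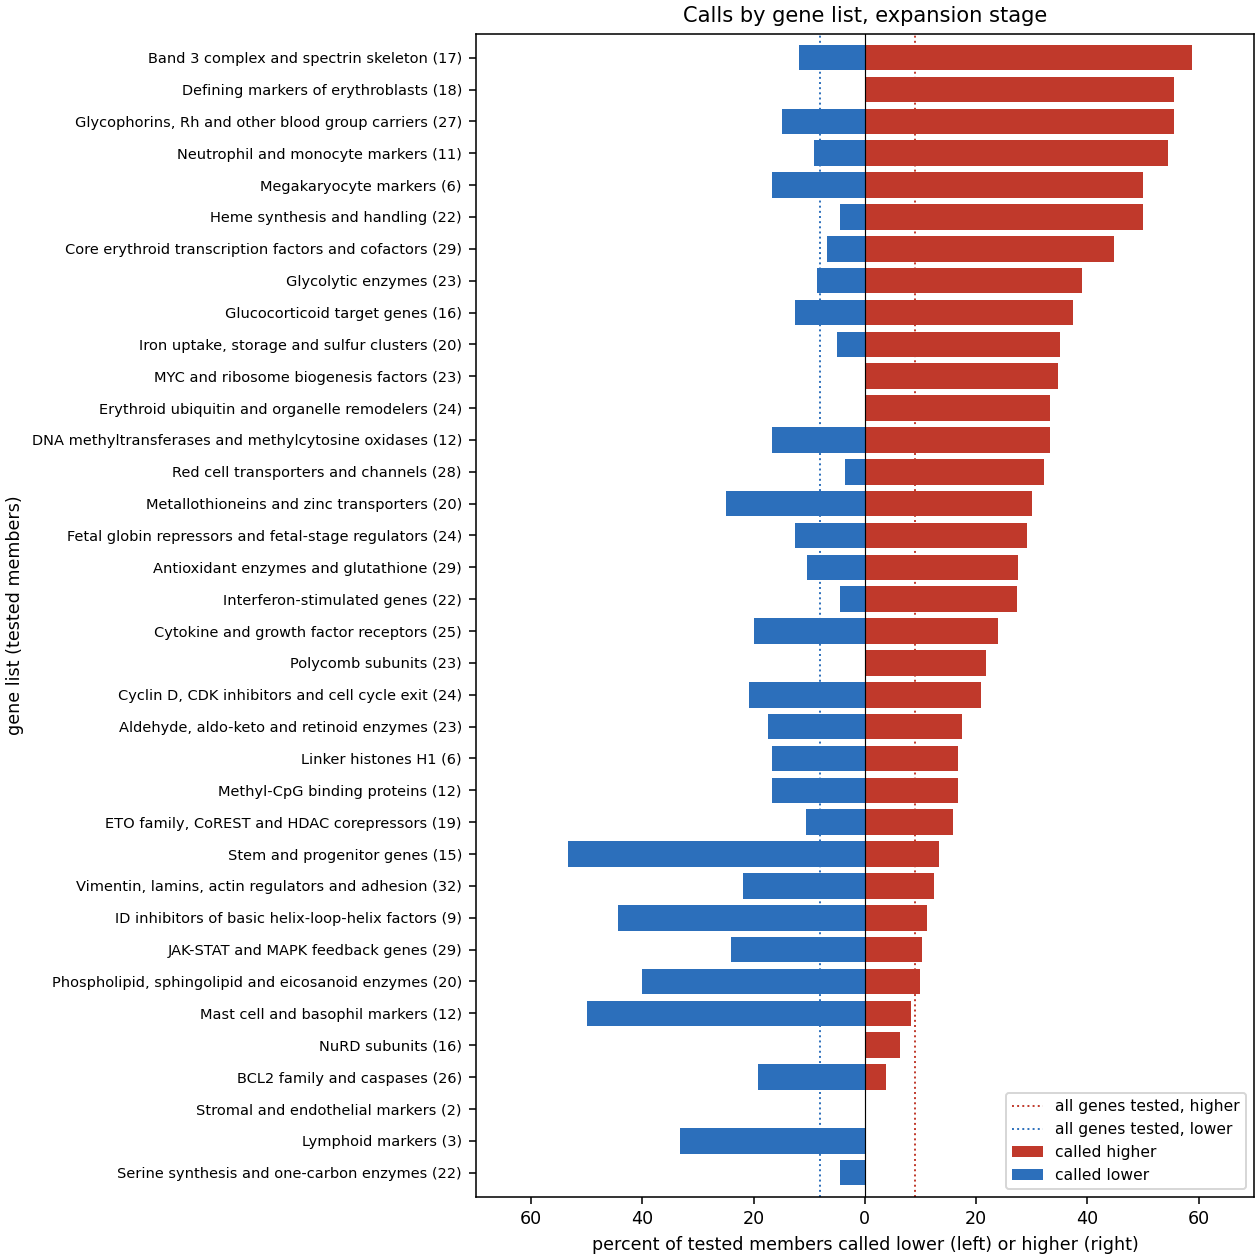
Percent of tested members of each of 36 gene lists called higher (red, right) or lower (blue, left) in knockout, with the number of tested members in parentheses and dotted lines at the shares over all genes tested, 9.07% and 8.15%. Band 3 and skeleton genes reach 58.8% higher, and stem and progenitor genes (53.3%), mast cell markers (50.0%) and lipid enzymes (40.0%) have the largest shares lower among lists with at least 10 tested members.

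Among metabolic genes, glycolytic and antioxidant enzymes had more upward than downward calls. Of 23 glycolytic enzymes 9 rose (39.1%, against 9.07% of all genes) and 2 fell (8.70%, against 8.15%). The 2 became 1 in each fit that left out any library but knockout replicate 2. PFKFB2, which makes the activator of phosphofructokinase, went from 10.4, 11.4 and 10.9 to 26.2, 27.8 and 23.9 CPM (1.25 ± 0.11, adjusted p = 2.42e-07). PFKM, the muscle and red cell phosphofructokinase, rose by 0.86 ± 0.07, and BPGM, the red cell enzyme that makes the hemoglobin effector bisphosphoglycerate, by 0.85 ± 0.10. Of 29 antioxidant genes 8 rose (27.6%) and 3 fell (10.3%), and none was called lower without control replicate 1. GSTP1, a glutathione transferase at a low level here, went from 0.657, 0.542 and 0.381 to 2.09, 3.32 and 1.72 CPM (2.14 ± 0.37, adjusted p = 4.94e-04), and the pentose phosphate enzymes PGD and TALDO1 rose by 0.44 ± 0.07 and 0.34 ± 0.07. Serine and one-carbon genes had few calls, with 0 of 22 higher and 1 lower (4.55%, against 8.15% of all genes), TYMS on chromosome 18. The 0 became 1 without control replicate 2 or 3 or knockout replicate 1, and the lower count became 2 without knockout replicate 1. The median change of that list was -0.02.

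Some lipid enzymes fell. Of 20 phospholipid, sphingolipid and eicosanoid genes 8 fell (40.0%, against 8.15% of all genes), 2 rose and 10 were not called, with a median of -0.20. Besides HPGD these included PTGER3, a receptor for prostaglandin E2, with 19.7, 19.1 and 19.1 CPM in control cells versus 2.89, 3.14 and 4.43 CPM in knockout cells (-2.48 ± 0.17, adjusted p = 1.58e-08). LPCAT2, which remodels phospholipids and makes platelet-activating factor, went from 39.4, 34.6 and 36.4 to 15, 15.7 and 18.7 CPM (-1.16 ± 0.11, adjusted p = 8.49e-07). The sphingosine phosphate phosphatase SGPP1 went from 113, 99.2 and 111 to 61.9, 51.9 and 60.4 CPM. The falling members thus include an enzyme that breaks prostaglandins down and a receptor that senses one. Leaving out any single library left 8 or 9 falling members.

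Zinc transporters and metallothioneins were called in both directions, with the larger changes upward. Of 20 metallothioneins and zinc transporters 6 rose and 5 fell. The 5 became 2 without control replicate 1, control replicate 2 or knockout replicate 2, and 3 without knockout replicate 1. The zinc exporter SLC30A1 went from 3.28, 2.71 and 3.71 to 17.1, 12.1 and 10.7 CPM (2.08 ± 0.19, adjusted p = 7.47e-07). SLC30A10, an exporter of manganese, held 3 counts in control and 91 in knockout libraries, a ratio of 30.2 (exact 95% interval 10.0 to 149, counting error only). All 3 control counts came from control replicate 2. Without that library the fitted log2 change went from 4.74 to 7.74, a value that depends on the prior count because no control reads remain. The importer SLC39A14 rose by 0.68 ± 0.09 and SLC39A6, on chromosome 18, fell with -1.05 ± 0.09. Among 23 aldehyde, aldo-keto and retinoid enzymes 4 rose and 4 fell (17.4% each), the rises numbering 2 without control replicate 2. ALDH9A1 fell with -0.76 ± 0.09 and the retinoid receptor RXRA, counted with this list, rose by 0.52 ± 0.12.

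Cell cycle and survival genes were called in both directions. Of 24 cyclin D, inhibitor and cell cycle exit genes 5 rose and 5 fell (20.8% each, against 9.07% and 8.15% of all genes). The falls numbered 2 without control replicate 1 or 2, 3 without control replicate 3 or knockout replicate 2 or 3, and 4 without knockout replicate 1. CCNE1, the cyclin of the start of S phase, went from 24.3, 26.8 and 27.9 to 37.2, 41.1 and 37.6 CPM (0.55 ± 0.08, adjusted p = 7.12e-05). CCND3, the D cyclin known for the timing of erythroblast divisions, rose by 0.53 ± 0.12 and the inhibitor CDKN2B by 0.39 ± 0.08. Of 26 BCL2 family and caspase genes 1 rose (3.85%) and 5 fell (19.2%), the falls numbering 3 without control replicate 1 or knockout replicate 2 or 3. The gene called higher was BMF, a BH3-only member of the BCL2 family, which went from 0, 0.474 and 0.571 to 1.37, 1.89 and 1.18 CPM (2.00 ± 0.48, adjusted p = 0.00734). The rises numbered 2 without control replicate 2 or knockout replicate 1 and 4 without knockout replicate 3. The caspase gene CASP6 and APAF1, the core of the apoptosome, fell with -0.38 ± 0.09 and -0.43 ± 0.09. Of 23 MYC and ribosome biogenesis factors 8 rose and 0 fell. That count became 2 without control replicate 1, 4 without control replicate 2 or knockout replicate 2 and 5 without knockout replicate 3. PES1 measured 0.31 ± 0.06.

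Gene families, with members taken by symbol pattern, were described from the same fit. The families were chosen with earlier results of these data known, and some members also stand in the lists above. Over protein-coding genes 12.1% rose and 10.4% fell. Of 189 solute carriers 44 rose (23.3%) and 19 fell, and of 23 ABC transporters 12 rose (52.2%) and 1 fell. The exporter ABCG2, which carries porphyrins, went from 8.07, 6.97 and 6.86 to 20.1, 13.6 and 14.1 CPM (1.14 ± 0.15, adjusted p = 4.57e-05), ABCC5 rose by 0.41 ± 0.06, and ABCA5 fell with -1.96 ± 0.26. Zinc finger genes of the ZNF series leaned the other way, with 22 of 412 higher (5.34%) and 52 lower (12.6%). ZNF521, a cofactor of progenitor cells on chromosome 18, went from 177, 176 and 179.9 to 32.9, 32.7 and 38.4 CPM (-2.36 ± 0.11, adjusted p = 1.91e-10) and ZNF441 from 20.6, 20.1 and 18.4 to 7.22, 6.02 and 6.61 CPM. Of 38 proteasome genes 10 rose and 1 fell. The one that fell was PSMB9, an immunoproteasome subunit, with 21.2, 18.8 and 17.7 CPM in control cells versus 8.16, 9.52 and 8.96 CPM in knockout cells (-1.12 ± 0.14, adjusted p = 1.74e-05), while the constitutive subunit PSMB5 rose by 0.40 ± 0.06. Myosins split 4 and 4 of 13, with MYO1F, a myosin of white blood cells, down at -1.85 ± 0.18 and MYO6 down at -0.88 ± 0.08. The largest change among myosins was a rise of 7.71, for a gene with 1 count over the control libraries. Semaphorins split 3 and 3 of 18, with SEMA3G up by 2.82 ± 0.29 and SEMA3E down at -2.50 ± 0.26. Of 81 ribosomal protein genes 3 rose (3.70%) and 2 fell (2.47%).

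Summed levels were lower in knockout for mast cell markers and higher for neutrophil markers, and markers of lymphoid and stromal cells were near 0. Since these are bulk libraries, fewer cells of a type and less RNA per cell cannot be told apart. Mast cell and basophil markers summed to between 423 and 451 CPM in control and between 292 and 300 CPM in knockout libraries. A single gene, MS4A2, made up the largest part of that difference. It measured 80.0, 63.2 and 64.9 CPM in control cells versus 0.722, 0.449 and 1.81 CPM in knockout cells. Of the 25 listed, 12 could be tested, 1 rose and 6 fell, and none was at 0 in all 6 libraries. The tryptase genes TPSB2 and TPSAB1, near copies whose reads may be split, fell with -0.66 ± 0.12 and -0.83 ± 0.16, while ENPP3, the largest contributor, measured 194, 186 and 174 CPM in control cells versus 186, 173 and 182 CPM in knockout cells. Neutrophil and monocyte markers summed to between 35.5 and 40.0 CPM in control and between 57.8 and 68.6 CPM in knockout. Of 26 listed, 11 could be tested, 6 rose and 1 fell, with S100A8 and S100A9 at 0 counts in all 6 libraries. The one that fell was CD33, a lectin of myeloid cells named here after its values were seen, from 2.63, 2.84 and 3.43 to 1.52, 0.898 and 0.633 CPM (-1.49 ± 0.35, adjusted p = 0.00637). The granule protease gene PRTN3 went from 0.469, 0.203 and 0.0952 to 1.01, 2.25 and 1.72 CPM, a log2 change of 2.64 ± 0.51, or 3.27 without control replicate 1. Megakaryocyte markers summed to between 41.6 and 43.5 CPM in control and between 51.7 and 74.1 CPM in knockout. Of 20 listed, 6 could be tested, with ITGA2B, integrin alpha IIb, at 0.65 ± 0.14 and TUBB1 at 1.14 ± 0.24 higher and RAB27B, on chromosome 18, lower at -2.83 ± 0.32. PPBP, FLI1, VWF, CLEC1B and GP1BB were at 0. Of 25 lymphoid markers 3 could be tested and their sum stayed at or under 6.95 CPM in every library, and of 20 stromal and endothelial markers 2 could be tested, with sums at or under 7.60 CPM. Lymphoid genes DNTT, MS4A1, CD3E, CCL5 and VPREB1 and stromal genes COL3A1, EMCN, VWF, DCN and COL1A1 were at 0. Progenitor genes summed to between 1507 and 1570 CPM in control and between 1314 and 1365 CPM in knockout. KIT, also counted among the defining erythroblast markers, was the largest contributor to these sums and was not called. It measured 713, 737 and 772 CPM in control cells versus 655, 655 and 675.5 CPM in knockout cells. Of 15 tested among 28 listed, 8 fell (53.3%) and 2 rose, and PROM1, HOXA10 and FLI1 were at 0. The part of these sums in the red cell and lipid gene results was not tested.

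Interferon-stimulated genes were at low levels in both groups. Of 22 tested among 32 listed, 6 rose and 1 fell, the fall not being called without control replicate 1, control replicate 2 or knockout replicate 1 and numbering 2 without control replicate 3. USP18, which removes ISG15 from proteins, went from 0.844, 1.22 and 0.857 to 2.96, 4.13 and 2.81 CPM (1.71 ± 0.26, adjusted p = 1.43e-04), and IFITM1, which restricts virus entry and shares 32% of its exon bases with another gene, from 1.22, 0.88 and 0.476 to 3.46, 3.23 and 2.62 CPM.

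A few noncoding genes changed strongly. Of 11652 protein-coding genes 1411 rose (12.1%) and 1213 fell (10.4%). Of 580 lincRNA genes 30 rose (5.17%) and 28 fell (4.83%), and of 963 antisense genes 18 rose (1.87%) and 38 fell (3.95%). Of 2981 pseudogenes 68 rose (2.28%) and 90 fell (3.02%). LINC01344 went from 1.03, 1.02 and 1.81 to 21.1, 18.5 and 24.7 CPM (4.08 ± 0.20, adjusted p = 2.89e-10), the pseudogene GVINP2 from 0.938, 1.29 and 1.52 to 10.1, 12 and 13.8 CPM (3.24 ± 0.21, adjusted p = 9.84e-09) and the lincRNA AC079466.1 from 36.2, 35.1 and 39.9 to 7.65, 6.29 and 7.15 CPM (-2.39 ± 0.12, adjusted p = 4.16e-10). The groups are apart in all 3. RNA5-8SN2, a 5.8S ribosomal RNA copy, passed the test at adjusted p = 0.0484 with overlapping groups, and its adjusted p was 0.143 without control replicate 1, 0.101 without control replicate 2 and 0.632 without knockout replicate 2.

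Calls were not spread evenly over the genome. On chromosome 18, which carries MBD2, 149 of 265 tested genes fell and 5 rose. In windows of 10 Mb with at least 20 tested genes, 279 in all, the window medians had an interquartile range of -0.08 to 0.03. All 8 windows of chromosome 18 had medians between -0.65 and -0.33, lower than any window elsewhere, so the shift ran along the whole chromosome and not only around MBD2. Of the genes named above on chromosome 18, some lie near these medians and others, such as ZNF521 and RAB27B, far below them. Elsewhere the lowest median was -0.27, on chromosome 8 at 90000001 to 100000000, where 26 of 70 genes fell and 2 rose. Windows of chromosome 8 starting at 80000001, 100000001 and 120000001 had medians of -0.14, -0.23 and -0.20. The highest median of any window was 0.28, at 140000001 to 150000000 on the same chromosome, where 29 of 85 rose and 1 fell. RPL8, named above, lies in that window. The last window of chromosome 17 (80000001 to 90000000) had 16 genes higher and 0 lower of 77, and that of chromosome 21 (40000001 to 50000000) 16 and 1 of 60. Gene copy number was not measured. Without the genes of chromosome 18, 1428 genes were called higher and 1299 lower.

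**Figure D4:**
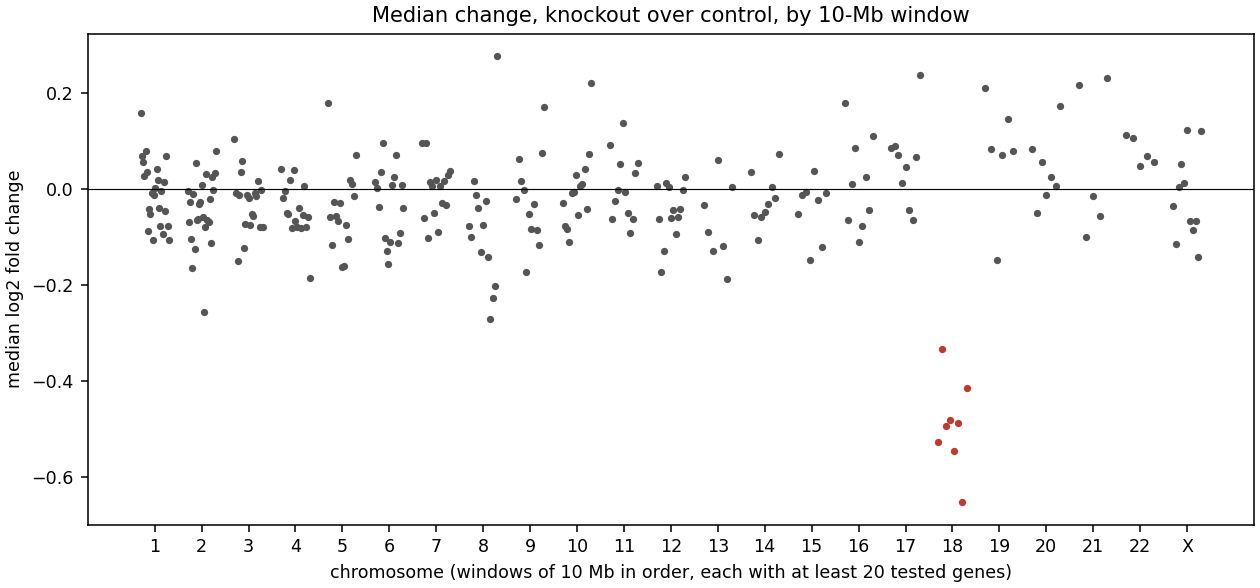
Median log2 fold change of knockout over control (vertical) in 10-Mb windows with at least 20 tested genes, in order along each chromosome (horizontal). The 8 windows of chromosome 18, in red, lie between -0.65 and -0.33, below every other window.

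The knockout effect of the expansion stage was last set beside that of differentiated cells, which share no library with it. Both effects came from the same fit and the same kinds of knockout and control cells. A trait of the knockout cells other than loss of MBD2 could appear at both stages and cannot be told apart here. After differentiation 16.8% of tested genes were called higher and 16.3% lower. Of the 1558 genes higher at the expansion stage 922 (59.2%) were also higher later and 63 were lower, and of the 1400 lower genes 875 (62.5%) were also lower later and 48 higher. A test of the difference between the effects (interaction in the same fit) called 13% of all genes. RYR2, RYR3, HPGD, NLRC5 and SH3BGRL2 changed by 3.89, -3.22, -2.58, 2.85 and 3.91 in differentiated cells, and none of these differences between stages was called. Other effects were larger at the expansion stage. DNAH8 measured -0.94 later against -4.63 ± 0.28 here (interaction adjusted p = 0.0118), SYTL2 -1.10 (interaction adjusted p = 2.76e-04), PTGER3 -0.99 (0.00496), CFD 1.19 (2.38e-04), H1F0 2.34 (0.00141) and PLIN2 0.28 (6.77e-05). Others were smaller at the expansion stage. AHNAK changed by -2.51 later, ZNF521 by -3.60, LPCAT2 by -2.35, GABARAPL1 by 3.64 and BPGM by 2.18, with interaction adjusted p from 1.94e-08 to 0.00792. TRIM67, a ubiquitin ligase gene best known from the nervous system, was called in opposite directions. It went from 3.94, 3.72 and 3.43 to 8.52, 8.35 and 7.42 CPM at the expansion stage (1.13 ± 0.15, adjusted p = 4.79e-05) and changed by -2.48 later (interaction adjusted p = 1.32e-07). The potassium channel KCNK1 (-0.51 ± 0.08 here, 0.81 later), the cadherin CDH6 (-0.68 ± 0.10, 0.77) and the phosphatase DUSP3 (0.48 ± 0.08, -0.69) were called in opposite directions as well, as the plot of the effects at both stages shows. So were NR3C1 (-0.32 ± 0.06, 0.23) and, with calls at the expansion stage that single libraries decide, HSPA8 and CDK2AP1.

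**Figure D5:**
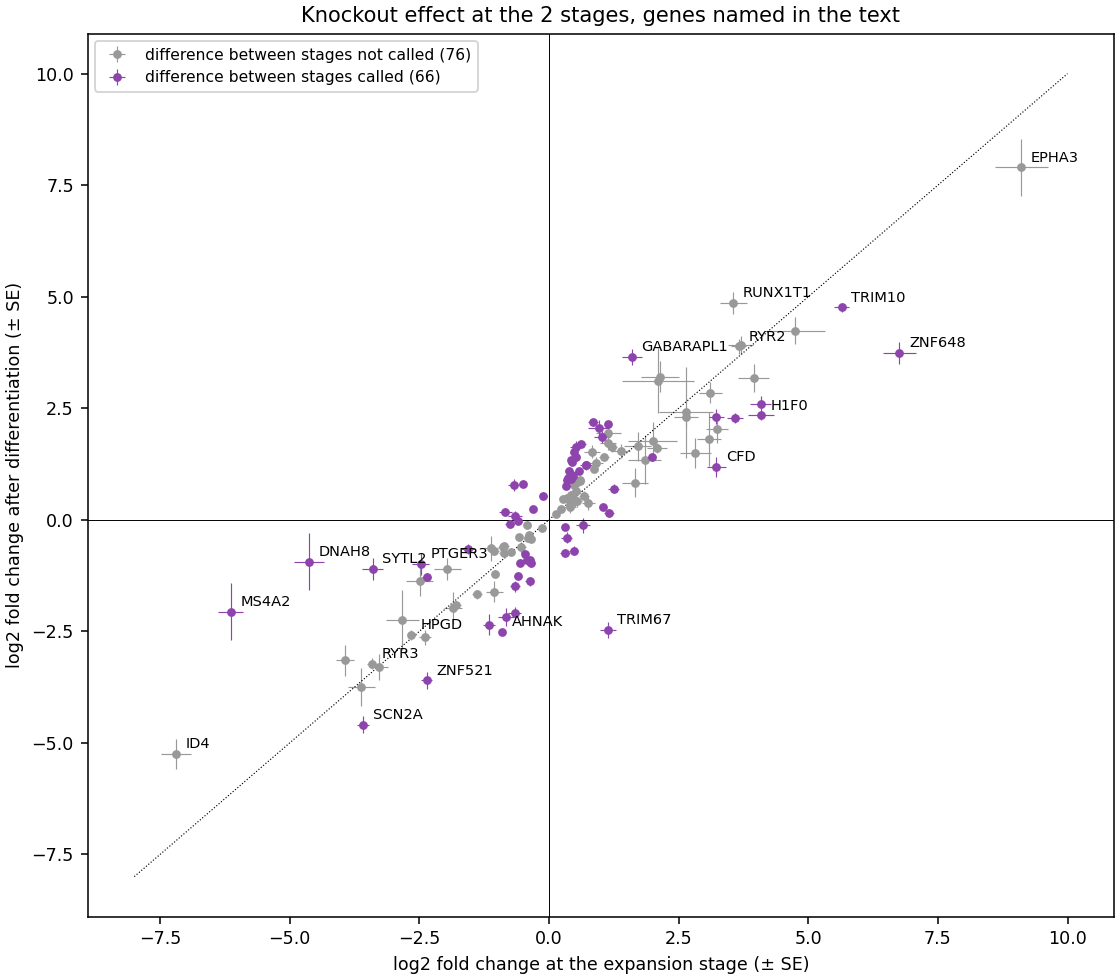
Log2 fold change of knockout over control after differentiation (vertical) against that at the expansion stage (horizontal) for the genes named in the text, with SE bars, the line of equal effects dotted, and genes whose effects differ between stages in purple. TRIM67 lies in the lower right, with 1.13 at the expansion stage and -2.48 later, and AHNAK lies below the line.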

How the data were processed

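RNA sequencing libraries of HUDEP-2 cells were analysed. Deposited values are raw counts (read pairs per gene), which the authors made, per the file headers, with featureCounts 1.4.6-p4 in GENCODE release 22 on build hg38, over exons and without a strand option, although the kit keeps strand. Per the submitters' processing notes, Trimmomatic, FastQC, Subread 1.6.2 and featureCounts 1.2.6 were used. Symbols came from GENCODE release 29 (56753 of 60483 genes). Genes passing filterByExpr over 4 groups (17175) were fitted with edgeR 4.0.16 in R 4.3.3, with TMM scaling, group means over 12 libraries and the two-sided quasi-likelihood test, and p-values were Benjamini-Hochberg adjusted over all genes. The common biological coefficient of variation was 0.089. A standard error is the log2 change divided by the square root of F. The script was checked on simulated counts. CPM is scaled by TMM.

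Replicate numbers were not used as pairs in the main fit. The 36 lists, their members and the 26 families were chosen with earlier results of these data known, so list and family counts are descriptions. Genes named were MBD2, up to 12 per direction by size of change and by difference in level per kilobase, up to 6 by p-value, up to 4 per list, up to 3 per family of 26, and up to 6 noncoding genes per direction. Those by size, level or p-value were protein-coding genes called without overlap between groups. Ranking by size of change, also for noncoding genes, asked for a mean of at least 10 CPM in the higher group. Not every gene the rule allows is described. Promoter windows came from RefSeq, GRCh38.p14. Alternatives tried were other scalings, filters, tools and thresholds, a replicate block, only the 6 expansion libraries, leaving out chromosome 18 and leaving out each of the 6 expansion libraries in turn.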

Additional observations from a re-analysis of the deposited data

Results flagged for a closer look

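These results are listed because a test comparing the effect of the knockout at both stages passed an adjusted p under 0.05 in edgeR. It did so for 13% of all genes tested and for 66 of the 142 genes named. Each value is the log2 change at the expansion stage minus that after differentiation. Fitted effects had opposite signs at the 2 stages for 12 genes. Their differences were 3.61 for TRIM67, -1.45 for CDH6, -1.32 for KCNK1, 1.17 for DUSP3, 1.06 for HSPA8, -1.01 for KCNN4, 0.77 for ITGA2B and 0.74 for CDK2AP1. Further differences of this kind were -0.74 for GADD45B, -0.66 for HIST1H1C, -0.55 for NR3C1 and 0.48 for PES1. 

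Genes that rose more at the expansion stage included the erythroid ligase gene TRIM10 and the complement protease gene CFD. The differences were 3.02 for ZNF648, 2.04 for CFD, 1.74 for H1F0, 1.49 for LINC01344, 1.31 for SLC6A19, 1.01 for LXN, 0.91 for ITPRIPL2 and 0.88 for TRIM10. Smaller ones were 0.76 for PLIN2, 0.57 for NEO1 and 0.55 for PFKFB2. Genes that fell more at the expansion stage included the mast cell receptor gene MS4A2 and the dynein gene DNAH8. Here the differences were -4.08 for MS4A2, -3.69 for DNAH8, -2.302 for SYTL2, -1.49 for PTGER3, -1.07 for VWA5A, -0.91 for ZNF441, -0.67 for ALDH9A1 and -0.56 for DECR1.

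Genes that rose less at the expansion stage than later included the autophagy gene GABARAPL1 and the red cell enzyme gene BPGM. Among the largest differences, the values were -2.05 for GABARAPL1, -1.33 for BPGM, -1.11 for CCND3, -1.103 for CBX7, -1.09 for E2F2, -1.05 for IL6ST, -1.001 for SLC25A37 and -0.91 for CLCN3. Next came values of -0.895 for EPB42, -0.84 for NCOA4, -0.83 for ARID3A, -0.71 for CDKN2B, -0.56 for JAK2, -0.56 for YOD1, -0.55 for TET3 and -0.53 for KLF3. The remaining values were -0.52 for NFE2, -0.51 for GLRX5, -0.51 for GADD45A, -0.51 for UROD and -0.42 for AHSP. Genes that fell less at the expansion stage than later included the scaffold gene AHNAK and the tryptase genes. For these the differences were 1.602 for AHNAK, 1.44 for TPSB2, 1.35 for TPSAB1, 1.24 for ZNF521, 1.19 for LPCAT2, 1.003 for SCN2A, 1.001 for CASP6 and 0.83 for CBFB. Smaller differences were 0.66 for TMSB10, 0.62 for ID2, 0.54 for S100A4, 0.48 for APAF1, 0.41 for HMGCS1 and 0.297 for LAPTM4B.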

How the results depend on the processing

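The counts of genes higher and lower (1558 and 1400) moved most with the threshold. At an adjusted p under 0.01 they were 880 and 826, and with glmTreat, which asks for changes beyond 1.5-fold, 346 and 197, with 57 in place of 266 list members called. Leaving out 1 expansion library at a time gave 1024 to 1513 higher genes (lowest without control replicate 1), 992 to 1419 lower genes, 1640 to 2375 genes whose effect differed between stages, 199 to 254 list members called, 62.2% to 65.3% CpG-rich among genes up at least 4-fold, and MBD2 at -1.86 to -1.71. No library taken after differentiation was left out. DESeq2 1.42.0 gave 1386 and 1186, limma voom 1562 and 1446, the 6 expansion libraries alone 1055 and 1038, and library sizes without TMM 1237 and 1547, where 44.4% in place of 52.7% of calls were upward and the median gene moved by -0.03. No called gene of the naming rule changed sign in these fits, and 203 of the 227 called genes of the naming rule were called in each of the 15 alternative fits that tested them. Same-numbered control and knockout libraries had correlations of 0.367, 0.139 and 0.0775 in their deviations, all positive. Those of libraries with different numbers ran from -0.314 to 0.183, most of them negative. The highest of these was control replicate 3 with knockout replicate 2. The main fit did not take the numbers as pairs, and whether they are pairs was not tested. A replicate block gave 1869 higher, 1622 lower and 2728 differing between stages, and of the genes of the naming rule changed only the call of MTHFD1, made also by DESeq2, without the count filter, and without control replicate 2 or knockout replicate 1. Genes below the filter on low counts were not tested at this depth. The cause of each shift was not tested.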
